A study of Rattus norvegicus with 28 samples.

Results

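The 10 genes described were taken by exact symbol: Parp9, Dtx3l, Parp14, Parp12, Parp10, Parp11, Parp8, Parp3, Parp1 and Parp2. They are 9 members of the poly(ADP-ribose) polymerase (PARP) family and the ubiquitin ligase Dtx3l, the binding partner of Parp9, with Parp1 and Parp2 as relatives that are not known as interferon targets. All 10 were listed in all 28 libraries, in which 15009 gene symbols were shared and 28459 were listed at least once, and all 10 passed the filter on low counts in every comparison. The libraries hold messenger RNA of primary glia, prepared from Wistar rat cortices taken on postnatal day 1 and cultured for 10 days. Microglia, the resident macrophages of the brain, were shaken off and purified with CD11b/c magnetic beads, and astrocytes are the glia of the same kind of culture. Microglia received their stimulus 1 day after isolation and astrocytes 3 days after it, in medium with 10% fetal calf serum. The 8 groups were microglia with ENV, with buffer (the ENV vehicle), with LPS and with H2O (the LPS vehicle), with 3 libraries each, and astrocytes with the same 4 additions, with 4 libraries each. ENV is recombinant envelope protein of the human endogenous retrovirus family HERV-W, given at 1 µg/ml, and LPS is bacterial lipopolysaccharide, given at 100 ng/ml. Genotypes beyond the strain are not given. The labels used here give neither the length of the stimulus nor whether replicates came from separate litters. A p-value therefore reflects how far libraries of a group lie apart, and that spread could be technical.

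PARP enzymes take ADP-ribose from NAD+ and attach it to proteins. Parp1 and Parp2 build long chains of it at DNA breaks, and Parp3 acts at breaks as well, whereas Parp10, Parp11, Parp12 and Parp14 attach single units. In human and mouse cells Parp9, Dtx3l, Parp14, Parp12 and Parp10 are induced by interferon and by receptors for microbial products, and several of them restrict viruses or shape the inflammatory state of macrophages. LPS acts through Toll-like receptor 4, the receptor through which HERV-W ENV has also been described to act on innate immune cells and glia.

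The promoters are shown because the members that moved together can be compared for the elements that interferon- and NF-kB-regulated promoters often hold. Each window is a RefSeq sequence of the GRCr8 assembly, 5′ to 3′ on the gene's own strand. It runs from 250 bases before to 50 bases after a start listed for the gene, with 1 window used per gene. Capitals mark the core of the interferon-stimulated response element (ISRE), searched as GAAANNGAA on both strands. Of the 10 genes, 9 had a window. The 4 windows printed are Parp14 (chr11:78407884-78408183, plus strand), Dtx3l (chr11:78319975-78320274, plus strand), Parp12 (chr4:68850492-68850791, minus strand) and, as a window without a match, Parp1 (chr13:94839234-94839533, plus strand).
Parp14: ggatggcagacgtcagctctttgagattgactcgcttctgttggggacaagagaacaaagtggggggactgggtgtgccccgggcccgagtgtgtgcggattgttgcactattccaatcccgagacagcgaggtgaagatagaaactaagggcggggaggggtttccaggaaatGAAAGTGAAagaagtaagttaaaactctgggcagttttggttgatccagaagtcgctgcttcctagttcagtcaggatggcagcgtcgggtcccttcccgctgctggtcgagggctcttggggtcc
Dtx3l: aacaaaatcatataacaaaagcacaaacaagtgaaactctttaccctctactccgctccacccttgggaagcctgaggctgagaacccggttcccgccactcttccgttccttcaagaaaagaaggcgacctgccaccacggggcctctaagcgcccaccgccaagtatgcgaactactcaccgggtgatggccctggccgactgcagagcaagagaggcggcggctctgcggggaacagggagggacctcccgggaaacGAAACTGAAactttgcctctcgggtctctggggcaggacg
Parp12: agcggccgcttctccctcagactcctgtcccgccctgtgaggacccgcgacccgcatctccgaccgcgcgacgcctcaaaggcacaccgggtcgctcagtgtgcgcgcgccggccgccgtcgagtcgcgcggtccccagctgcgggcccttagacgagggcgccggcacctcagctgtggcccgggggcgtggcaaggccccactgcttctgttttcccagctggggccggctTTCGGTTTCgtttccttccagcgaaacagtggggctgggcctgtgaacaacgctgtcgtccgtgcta
Parp1: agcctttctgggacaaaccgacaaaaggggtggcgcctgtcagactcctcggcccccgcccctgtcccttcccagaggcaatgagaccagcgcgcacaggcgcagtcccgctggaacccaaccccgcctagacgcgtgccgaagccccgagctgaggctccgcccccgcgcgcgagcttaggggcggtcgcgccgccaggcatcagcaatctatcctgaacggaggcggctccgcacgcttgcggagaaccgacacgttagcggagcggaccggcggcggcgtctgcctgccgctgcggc
The ISRE core was present in 3 of the 9 windows, those of Parp14, Dtx3l and Parp12, and in 9.71% of all 33469 RefSeq promoter windows of the same length. Counted from the start used, it began at -76 in Parp14, at -17 in Parp12, where it lay on the opposite strand, and at 11 in Dtx3l. The GAS element (TTCNNNGAA), the motif of interferon-gamma-activated sites, was present in 1 of the 9 windows, at -87 in Parp14, against 8.87% of all windows. The NF-kB consensus matched 4 of the 9 windows, those of Parp2, Parp3, Parp11 and Dtx3l, against 7.51% of all windows. No 2 matches of different motifs overlapped in these windows. The Parp9, Parp8 and Parp1 windows held none of the 3 motifs, which says only that these letters are not in these windows. Parp9 and Dtx3l lie on opposite strands of chromosome 11 with overlapping annotated spans, and Parp14 lies on the same chromosome with no protein-coding gene between it and Dtx3l. The Parp9 window (chr11:78318962-78319261, minus strand) and the Dtx3l window lie apart and run away from each other. With overlapping spans, the start used for these genes need not be the outermost, and other starts were not searched.

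Library totals were 26513999 to 42724111 counts in microglia and 23742228 to 35326938 counts in astrocytes. Levels below are normalised CPM, that is, counts per 1000000 of each library's total after TMM scaling over all 28 libraries. A count of 3, the limit that a count of 0 allows, stands for at most 0.14 CPM in microglia and 0.105 CPM in astrocytes, and such limits cover counting error only. The labels matched the defining markers: 11 listed microglial and macrophage markers summed to 6869 to 12178 CPM in microglia, and 9 astrocyte markers summed to 1981 to 9194 CPM in astrocytes. The astrocyte cultures also held microglial markers, at 121 to 321 CPM with ENV against 173 to 585 CPM with buffer, and at 114 to 309 CPM with LPS against 228 to 532 CPM with H2O. Their summed fibroblast and mural markers were also lower with stimulus, at 832 to 1590 CPM with ENV against 1228 to 5859 CPM with buffer, and at 785 to 1558 CPM with LPS against 1266 to 4685 CPM with H2O. In microglia, oligodendrocyte-lineage markers were at 105 to 205 CPM with ENV against 347 to 362 CPM with buffer. With LPS they were at 7.54, 7.56 and 53.1 CPM in replicates 1, 2 and 3, against 20.7, 21.1 and 210.5 CPM with H2O. Of the 9 listed, Mog was at 0 in every ENV and LPS library of microglia and Mag in every H2O library. In microglia endothelial markers were higher with stimulus, at 106 to 223 CPM with ENV against 45.1 to 62.7 CPM with buffer, and at 138 to 301 CPM with LPS against 61.3 to 120 CPM with H2O. Granulocyte markers were at 228 to 470 CPM with ENV against 67.5 to 129 CPM with buffer, and at 119 to 332 CPM with LPS against 108 to 125 CPM with H2O. Csf3r made up most of the sum of the 5 granulocyte markers, Elane was at 0 in every microglial library, and Mpo and S100a9 had at most 2 counts in any. In astrocytes neuron markers were at 218 to 373 CPM with ENV against 495 to 693 CPM with buffer, and at 229 to 373 CPM with LPS against 370 to 689 CPM with H2O. The astrocyte markers themselves were at 3673 to 6829 CPM with ENV against 7311 to 9194 CPM with buffer, and at 1981 to 6880 CPM with LPS against 4356 to 9178 CPM with H2O. The part of these other cells in the results was not tested, and in bulk RNA fewer cells of a type and less RNA per cell cannot be told apart.

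In microglia 6 members rose with ENV and no member fell: Parp9, Dtx3l, Parp14, Parp12, Parp10 and Parp3. LPS raised Parp9, Dtx3l, Parp14, Parp12, Parp10 and Parp3 in microglia, 6 members as well. In astrocytes 7 members rose with ENV (Parp9, Dtx3l, Parp14, Parp12, Parp10, Parp11 and Parp8), and 5 rose with LPS (Parp9, Dtx3l, Parp14, Parp12 and Parp11). A gene was called changed at an adjusted p under 0.05 in edgeR's quasi-likelihood test, with Benjamini-Hochberg adjustment over all genes tested. The count of 6 of 10 members higher with ENV in microglia stands beside 16.2% of all genes called higher there (30.9% in either direction), and the 0 lower beside 14.7%. For LPS in microglia the 6 of 10 stand beside 16% called higher (29.8% in either direction), and the 0 lower beside 13.8%. In astrocytes the 7 of 10 with ENV stand beside 9.52% called higher (17.9% in either direction), and the 5 of 10 with LPS beside 2.64% called higher (5.34% in either direction). No member was called lower in astrocytes, where 8.35% of all genes were with ENV and 2.69% with LPS. With LPS in astrocytes the replicate block raised the count of members to 7 and that of all genes to 2611, against 785 without it. Without the block, the count of members was 2 on leaving out H2O replicate 1 or 2 and 1 on leaving out H2O replicate 3. The median log2 change of the 10 members was 1.23 with ENV and 1.36 with LPS in microglia, and 0.97 with ENV and 0.80 with LPS in astrocytes. Over all genes tested the 4 medians lay between -0.03 and 0.03. In microglia the ENV libraries lay wholly above the buffer libraries for 6 members (23.3% of all genes) and wholly below them for 1 (27.6%). The LPS libraries lay wholly above the H2O libraries for 6 members (23.6%) and wholly below them for 1 (28.3%). In astrocytes they lay wholly above for 7 members with ENV (12.1%) and for 5 with LPS (7.62%), and wholly below for 0 members in each (11.2% and 7.72%).

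**Figure D1:**
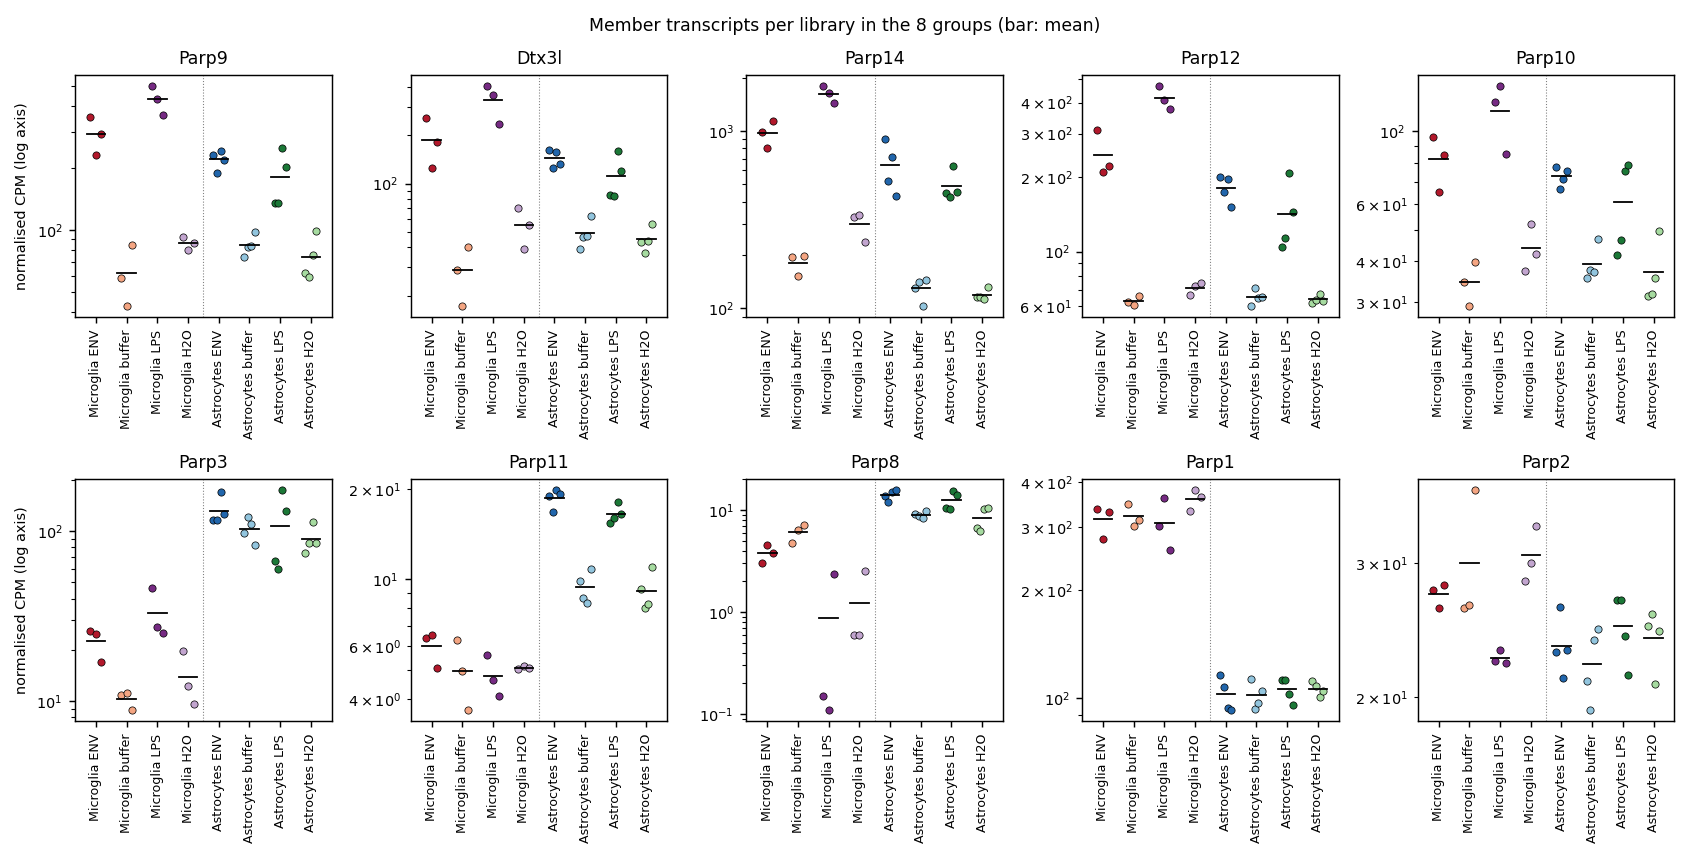
Normalised CPM of each member (log axis, 1 panel a gene) in each of the 28 libraries; points are libraries, bars are group means, and each treated group stands left of its own vehicle. Parp9, Dtx3l, Parp14 and Parp12 lie above their vehicle in every treated group, whereas the Parp1 points of treated and vehicle libraries overlap throughout.

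**Figure D2:**
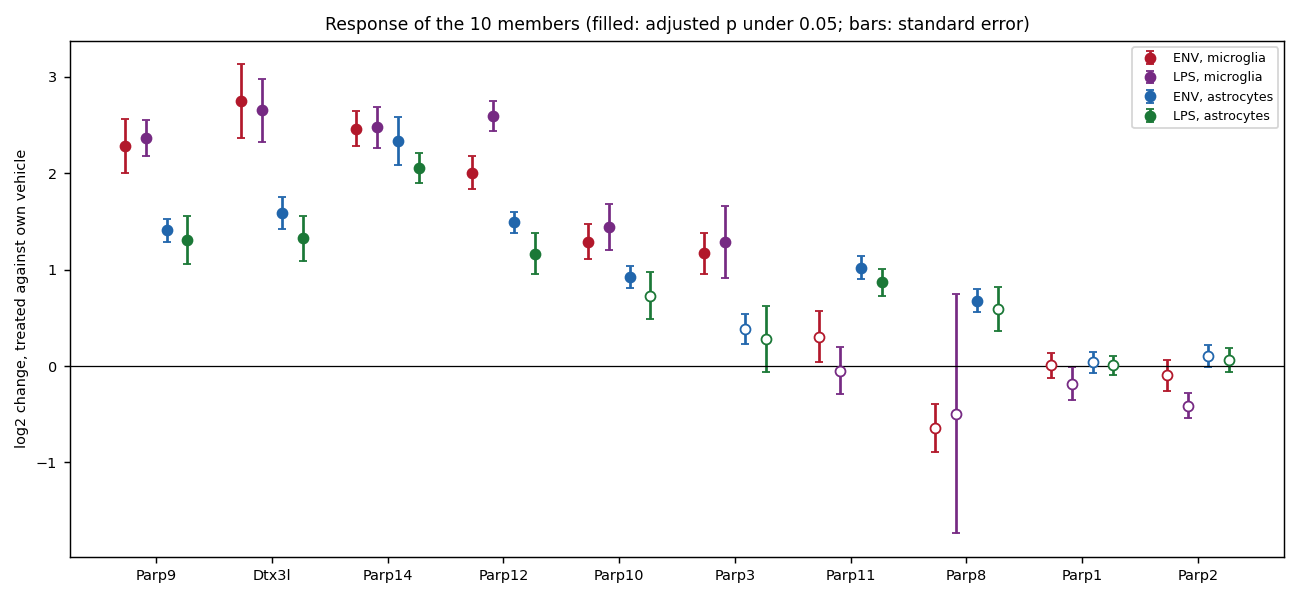
Log2 change of each member in its 4 treated-against-vehicle comparisons (y axis), with standard errors as bars; filled points passed an adjusted p of 0.05. Parp14 has the narrowest spread of changes among the strongly raised members, from 2.05 to 2.48, and Parp11 is filled under both stimuli in astrocytes and Parp8 under ENV in astrocytes.

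Parp9 and Dtx3l form a complex in which the macrodomains of Parp9 read ADP-ribose and Dtx3l adds ubiquitin. With ENV, Parp9 was at 354, 230 and 291 CPM in the 3 microglial libraries, against 58.4, 42.7 and 84.4 CPM with buffer. LPS-treated microglia had 501, 432 and 360 CPM, against 92.7, 79.7 and 86.4 CPM with H2O. No treated library fell within the range of its vehicle, and the log2 change was 2.28 ± 0.28 (SE; adjusted p = 0.0016 by edgeR) with ENV and 2.36 ± 0.18 (adjusted p = 0.0011) with LPS. In astrocytes Parp9 was at 232, 189, 241 and 217 CPM with ENV, against 74.0, 82.8, 83.7 and 97.6 CPM with buffer. With LPS the 4 astrocyte libraries had 135, 135, 250 and 201 CPM, against 61.4, 59.2, 75.1 and 98.8 CPM with H2O. The groups again did not overlap, but the LPS libraries fell into a lower pair, replicates 1 and 2, and a higher pair, replicates 3 and 4. The H2O libraries were also lower in replicates 1 and 2. Within replicate numbers 1 to 4 the log2 ratios were 1.13, 1.19, 1.73 and 1.02. Summed astrocyte markers split likewise, at 1981, 2083, 6097 and 6880 CPM with LPS and 4356, 5116, 7428 and 9178 CPM with H2O. The split is thus not particular to the members, and its source was not tested. The log2 change in astrocytes was 1.41 ± 0.12 (adjusted p = 0.000444 by edgeR) with ENV and 1.31 ± 0.25 (adjusted p = 0.0249) with LPS. The LPS call was lost on leaving out any of H2O replicates 1 to 3 or LPS replicates 3 and 4, at adjusted p between 0.0501 and 0.0857.

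Dtx3l showed the largest log2 changes of the 10 members in microglia under both stimuli. It was at 257, 126 and 182 CPM with ENV in microglia, against 28.8, 17.2 and 40.5 CPM with buffer, a log2 change of 2.75 ± 0.38 (adjusted p = 0.0026 by edgeR) or 6.72-fold. Under LPS the level was 410, 358 and 235 CPM, against 70.6, 38.999 and 55.1 CPM with H2O, a log2 change of 2.65 ± 0.32 (adjusted p = 0.00419). Every stimulated microglial library was above every vehicle library of its set. In astrocytes Dtx3l was at 163, 125, 158 and 132 CPM with ENV, against 38.97, 46.6, 47.1 and 63.0 CPM with buffer (log2 change 1.59 ± 0.16, adjusted p = 0.000912 by edgeR). With LPS the astrocytes had 85.1, 83.3, 159 and 120 CPM, against 43.4, 37.1, 43.8 and 56.3 CPM with H2O (1.32 ± 0.23, adjusted p = 0.0191), a call lost without H2O replicate 1, 2 or 3 (adjusted p = 0.0555 to 0.0726). Both genes thus had no overlap with vehicle in any of the 4 comparisons.

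The ratio of Parp9 to Dtx3l counts within a library was not fixed. It was 1.60 ± 0.23 with ENV and 2.20 ± 0.24 with buffer in microglia (SD, n = 3 each), and 1.32 ± 0.19 with LPS and 1.64 ± 0.37 with H2O. In astrocytes it was 1.53 ± 0.09 with ENV and 1.75 ± 0.15 with buffer (SD, n = 4 each), and 1.62 ± 0.05 with LPS and 1.62 ± 0.15 with H2O. The lowest buffer ratio in microglia, 2.03, lay above the highest ENV ratio, 1.83, whereas the LPS and H2O ratios overlapped in both cell types, as did the ENV and buffer ratios in astrocytes. These ratios compare counts without a correction for length and were not tested. The labels do not say whether counting used the strand, so reads of the overlapping part of the genes cannot be told apart.

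**Figure D3:**
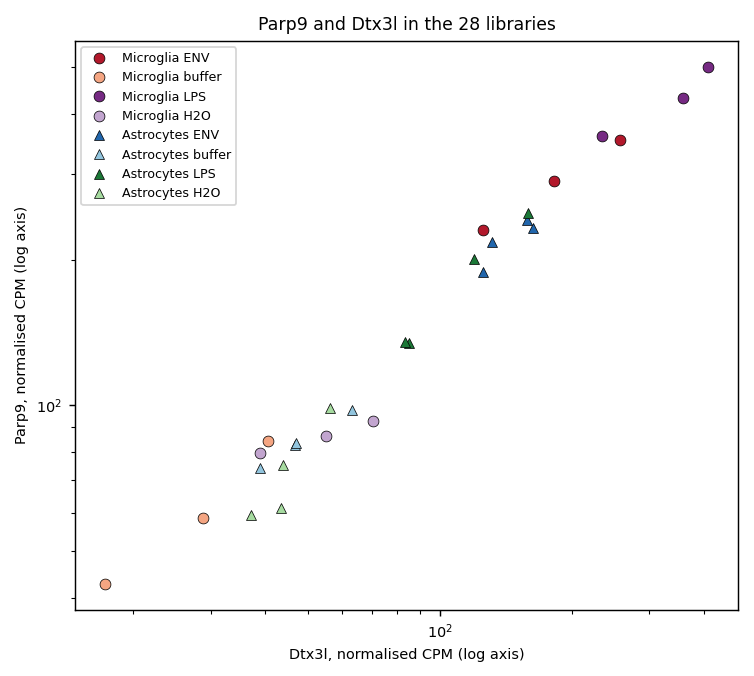
Normalised CPM of Parp9 (y axis) against Dtx3l (x axis), both on log axes, in the 28 libraries; circles are microglia and triangles astrocytes, coloured by group. Stimulated libraries lie to the upper right of their vehicles, from 83.3 to 410 CPM for Dtx3l against 17.2 to 70.6 CPM in vehicle libraries.

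Parp14, a large enzyme with several macrodomains that in mice acts with Stat6 in interleukin-4 responses, rose in all 4 comparisons. In microglia it was at 982, 797 and 1134 CPM with ENV, against 194, 153 and 196 CPM with buffer. LPS-treated cells had 1804, 1633 and 1431 CPM, against 326, 337 and 237 CPM with H2O. Both groups stood well clear of their vehicles, with log2 changes of 2.46 ± 0.18 (adjusted p = 0.00029 by edgeR) with ENV and 2.48 ± 0.21 (adjusted p = 0.0015) with LPS. Astrocytes had 903, 524, 716 and 431 CPM with ENV, against 131, 142, 103 and 144 CPM with buffer. With LPS they had 447, 424, 635 and 454 CPM, against 116, 116, 113 and 132 CPM with H2O. The ENV-treated astrocytes were spread widely, yet the lowest of them was still far above the highest buffer library. The log2 change was 2.34 ± 0.25 (adjusted p = 0.00105 by edgeR) with ENV and 2.05 ± 0.15 (adjusted p = 0.00253) with LPS. In astrocytes with LPS, Parp14 was the member that remained called when any 1 library was left out.

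Parp12, which carries CCCH zinc fingers and restricts RNA viruses in mouse and human cells, had closely matched vehicle groups. In microglia it was at 309, 210 and 222 CPM with ENV, against 62.7, 60.6 and 66.2 CPM with buffer (log2 change 2.01 ± 0.17, adjusted p = 0.000444 by edgeR). The LPS libraries were at 469, 410 and 376 CPM, against 66.5, 72.8 and 74.5 CPM with H2O (2.59 ± 0.15, adjusted p = 0.000555). Neither stimulus left a library near its vehicle. In astrocytes Parp12 was at 200, 174, 197 and 151 CPM with ENV, against 60.3, 71.2, 64.7 and 65.8 CPM with buffer (1.49 ± 0.11, adjusted p = 0.00035 by edgeR). LPS libraries had 104, 114, 208 and 144 CPM, against 61.8, 63.6, 67.7 and 63.3 CPM with H2O (1.17 ± 0.21, adjusted p = 0.0205). Replicates 1 and 2 were again the low pair among the LPS-treated astrocytes, and the call was lost without any 1 of the 4 H2O libraries (adjusted p = 0.0525 to 0.0725).

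Parp10, an enzyme that attaches single ADP-ribose units and carries RNA-recognition motifs, moved less. In microglia it was at 96.3, 65.3 and 84.9 CPM with ENV, against 34.6, 29.2 and 39.8 CPM with buffer (log2 change 1.29 ± 0.19, adjusted p = 0.00296 by edgeR). With LPS it was at 123, 138 and 85.1 CPM, against 37.4, 52.0 and 42.2 CPM with H2O (1.44 ± 0.24, adjusted p = 0.00852). In astrocytes with ENV the 4 libraries were close together at 77.9, 66.6, 71.7 and 75.7 CPM, against 35.5, 37.5, 37.0 and 46.9 CPM with buffer (0.92 ± 0.11, adjusted p = 0.00155). All 3 of these comparisons had no overlap between groups. In astrocytes with LPS the libraries had 41.7, 46.4, 75.9 and 79.0 CPM, against 31.3, 31.7, 35.6 and 49.4 CPM with H2O. Here the groups overlapped and the change of 0.73 ± 0.25 did not pass the test (adjusted p = 0.14 by edgeR). Each LPS library was nevertheless above the H2O library of the same number, and with the replicate number as a block the change was 0.70 with an adjusted p of 0.0173.

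Parp3, which acts on broken DNA ends, rose in microglia, where its level was low. With ENV it was at 25.8, 24.7 and 17.0 CPM in microglia, against 10.8, 11.2 and 8.83 CPM with buffer (log2 change 1.17 ± 0.21, adjusted p = 0.00692 by edgeR). LPS-treated microglia had 46.1, 27.2 and 25.03 CPM, against 19.8, 12.2 and 9.58 CPM with H2O (1.29 ± 0.37, adjusted p = 0.0433). The groups did not overlap, but the LPS call rested on every library except LPS replicate 3: without any other single one the adjusted p was 0.053 to 0.145 and the change 0.93 to 1.64. In astrocytes Parp3 was at 115, 116, 169 and 126 CPM with ENV, against 97.5, 121, 111 and 82.2 CPM with buffer, and the change of 0.38 ± 0.16 did not pass (adjusted p = 0.132). With LPS the astrocytes had 66.2, 59.3, 174 and 130 CPM, against 74.3, 85.1, 113 and 85.5 CPM with H2O (0.28 ± 0.34, adjusted p = 0.712). Replicates 1 and 2 were below their H2O partners, by log2 ratios of -0.17 and -0.52, and replicates 3 and 4 were above theirs, by 0.63 and 0.61.

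**Figure D4:**
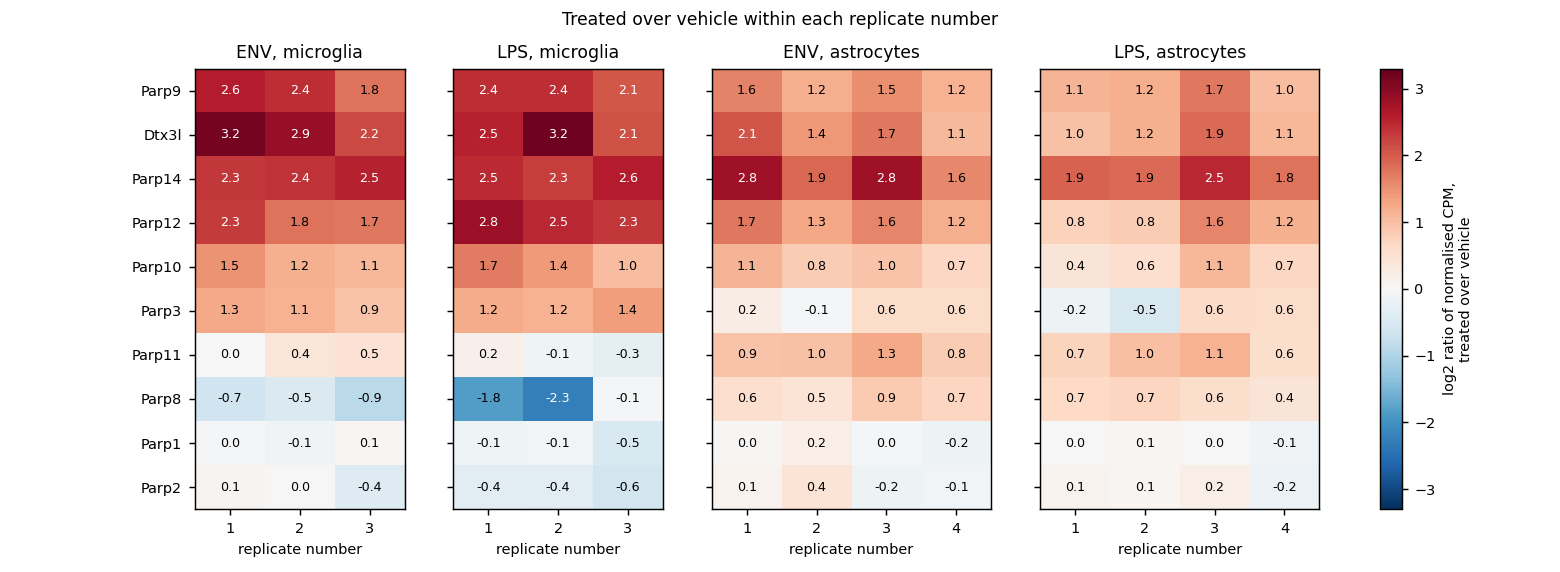
Log2 ratio of normalised CPM, treated over vehicle, within each replicate number (columns) for each member (rows) in the 4 comparisons; red is higher with treatment and blue lower, and the ratio is printed in each cell. Parp9, Dtx3l, Parp14, Parp12 and Parp10 are above 0 in all 14 pairs, and Parp3 changes sign among the LPS-treated astrocytes, from -0.52 to 0.63.

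Parp11, an enzyme that in human cells acts on the turnover of the type I interferon receptor, rose in astrocytes. It was at 18.9, 16.8, 19.8 and 19.3 CPM with ENV, against 9.86, 8.64, 8.32 and 10.8 CPM with buffer (log2 change 1.02 ± 0.12, adjusted p = 0.00146 by edgeR). Under LPS the level was 15.4, 15.9, 18.1 and 16.5 CPM, against 9.31, 8.01, 8.25 and 10.97 CPM with H2O (0.87 ± 0.14, adjusted p = 0.0127). The astrocyte groups did not overlap under either stimulus, and without H2O replicate 3 the LPS call was lost (adjusted p = 0.0542). In microglia Parp11 was at 6.36, 6.55 and 5.08 CPM with ENV, against 6.30, 4.94 and 3.67 CPM with buffer (0.31 ± 0.26, adjusted p = 0.407). LPS-treated microglia were at 5.61, 4.64 and 4.09 CPM, against 5.03, 5.15 and 5.08 CPM with H2O (-0.05 ± 0.25, adjusted p = 0.896). The microglial groups overlapped in both cases.

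Parp8 is one of the least characterised members of the family. In astrocytes it was at 13.6, 11.9, 15.0 and 15.7 CPM with ENV, against 9.21, 8.71, 8.32 and 9.66 CPM with buffer, and its log2 change was 0.68 ± 0.12 (adjusted p = 0.00748 by edgeR). The LPS libraries were at 10.5, 10.3, 15.2 and 13.9 CPM, against 6.62, 6.27, 10.2 and 10.4 CPM with H2O. That change of 0.59 ± 0.22 did not pass (adjusted p = 0.179), although each library was above its partner, and it passed with the replicate block (0.61, adjusted p = 0.0168). In microglia Parp8 was at 2.99, 4.53 and 3.82 CPM with ENV, against 4.76, 6.34 and 7.15 CPM with buffer. All 3 ENV libraries were below all 3 buffer libraries, the change of -0.64 ± 0.25 did not pass (adjusted p = 0.0888), and the block gave -0.65 with an adjusted p of 0.0407. With LPS the microglia had 0.152, 0.11 and 2.38 CPM, against 0.594, 0.599 and 2.51 CPM with H2O. These rest on 67 counts in the LPS libraries and 130 in the H2O libraries, and replicate 3 stood apart in both groups. The change was -0.49 ± 1.24 (adjusted p = 0.786), and -2.10 (adjusted p = 0.0341) without replicate 3 of both groups. The summed oligodendrocyte-lineage markers given above were lower with stimulus and highest in replicate 3 of both the LPS and the H2O microglia, as Parp8 was. In replicate 3 they were at 53.1 CPM with LPS against 210.5 CPM with H2O, where Parp8 was at 2.38 against 2.51 CPM. Summed neuron markers were also highest in replicate 3, at 2.35, 1.497 and 16.7 CPM with LPS against 1.37, 1.38 and 14.3 CPM with H2O. Summed astrocyte markers were highest in replicate 3 with H2O, at 68.0, 34.3 and 40.7 CPM with LPS against 77.7, 93.8 and 335 CPM with H2O. The part of these markers in the Parp8 values was not tested.

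Parp1 and Parp2, the enzymes that build ADP-ribose chains at DNA breaks, were called in none of the 4 comparisons. In microglia Parp1 lay between 278 and 337 CPM with ENV, against 302 to 348 CPM with buffer, a log2 change of 0.01 with a 95% confidence interval of -0.29 to 0.31. With LPS it lay between 259 and 361 CPM, against 332 to 381 CPM with H2O (-0.18, interval -0.60 to 0.23). In astrocytes it lay between 92.6 and 116 CPM with ENV, against 93.1 to 113 CPM with buffer (0.04, interval -0.20 to 0.28), and between 95.9 and 113 CPM with LPS, against 101 to 112 CPM with H2O (0.01, interval -0.21 to 0.22). The upper bounds of these intervals were below the change of each of Parp9, Dtx3l, Parp14 and Parp12 in the same comparison. Parp2 in microglia was at 22.3, 23.0 and 22.1 CPM with LPS, against 28.4, 30.0 and 33.6 CPM with H2O. The groups did not overlap, and the change of -0.41 ± 0.13 narrowly missed the threshold (adjusted p = 0.0526 by edgeR). It passed with DESeq2 (-0.40, adjusted p = 0.0196) and when all 4 microglial groups were fitted together (-0.43, adjusted p = 0.0315). In the other 3 comparisons the Parp2 change lay between -0.10 and 0.11.

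The ENV and LPS responses were compared within each cell type as a difference of log2 changes, ENV minus LPS. No member was called in either cell type, nor was any gene: 0 of 13270 in microglia and 0 of 15496 in astrocytes (0% called in both) by edgeR. At an unadjusted p under 0.05 there were 937 genes in microglia and 76 in astrocytes, and DESeq2 called 64 and 0 genes, of which 0 were members. The 76 are far fewer than a cut at 0.05 would pass by chance among 15496 genes. The test was thus conservative in astrocytes, and its lack of calls there says little on how alike the responses were. The reason was not tested. Parp12 in microglia had the smallest p of the members, with a difference of -0.56 ± 0.22 (adjusted p = 0.693 by edgeR). For Parp14 the difference was 0.02 ± 0.28 in microglia and 0.27 ± 0.28 in astrocytes, and for Dtx3l 0.14 ± 0.52 and 0.26 ± 0.28. Standard errors of this size leave sizeable differences undetectable with 3 or 4 libraries a group. The agents were given at 1 dose each, so these differences compare those doses.

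The responses of the cell types were compared as the microglial log2 change minus that of astrocytes. With ENV, Parp8 differed by -1.33 ± 0.26 (adjusted p = 0.00434 by edgeR), being higher than vehicle in astrocytes and below it in microglia. The Parp8 change in microglia alone did not pass (-0.64, adjusted p = 0.0888 by edgeR). Oligodendrocyte-lineage markers were also lower with ENV in microglia, and their part in this difference was not tested. Parp8 was the only member called for the difference, where 14.9% of all genes were called, 6.87% higher and 8.06% lower. Dtx3l (1.15 ± 0.40), Parp9 (0.86 ± 0.29) and Parp3 (0.78 ± 0.26) had larger changes in microglia and Parp11 (-0.72 ± 0.26) in astrocytes, at adjusted p between 0.0652 and 0.0775. With the replicate block 3314 of 13382 genes were called, against 1998 without it. These 4 members passed with the block as well, 5 members in all, at adjusted p between 0.0195 and 0.0326. Without single libraries the count was 1 to 4: 4 without buffer replicate 3 and 3 without ENV replicate 2 of microglia, and 2 without ENV replicate 3 of microglia, ENV replicate 3 of astrocytes or buffer replicate 4 of astrocytes. For Parp14 and Parp12 the differences were 0.12 ± 0.32 and 0.51 ± 0.20, and neither passed.

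With LPS, 3 members differed between the cell types, where 12.5% of all genes were called, 5.32% higher and 7.14% lower. Parp12 changed more in microglia (1.40 ± 0.27, adjusted p = 0.00689 by edgeR), as did Dtx3l (1.298 ± 0.39, adjusted p = 0.0465), and Parp11 changed more in astrocytes (-0.94 ± 0.23, adjusted p = 0.0209). The median difference of all genes in this comparison was -0.12, so relative to it the positive differences would be larger and that of Parp11 smaller. The Dtx3l call was lost without any of 11 of the 14 libraries, at adjusted p up to 0.105, with the difference between 1.10 and 1.40. It was kept without H2O replicate 1 or LPS replicate 3 of the microglia, or LPS replicate 3 of the astrocytes. The Parp11 call was lost without LPS replicate 2 (-0.88, adjusted p = 0.0681) or H2O replicate 3 (-0.81, adjusted p = 0.0973) of the astrocytes, which left 1 member called. With the replicate block 3029 of 13280 genes were called, against 1655 without it. With the block 5 members passed, Parp9 (1.04, adjusted p = 0.0107) and Parp3 (1.11, adjusted p = 0.0331) being added. Parp14 differed by 0.40 ± 0.24 (adjusted p = 0.318). Leaving out a library also added calls: Parp8 differed by -3.81 (adjusted p = 0.0143) without LPS replicate 3 of the microglia, Parp9 by 1.23 (adjusted p = 0.0247) without LPS replicate 3 of the astrocytes, and Parp2 by -0.57 (adjusted p = 0.0474) without LPS replicate 4 of the astrocytes. The Parp8 fit still held H2O replicate 3 of the microglia, which stood apart at 2.51 CPM against 0.594 and 0.599 CPM. The cell types were isolated in different ways and stimulated at different times after isolation, which cannot be told apart from the cell type.

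**Figure D5:**
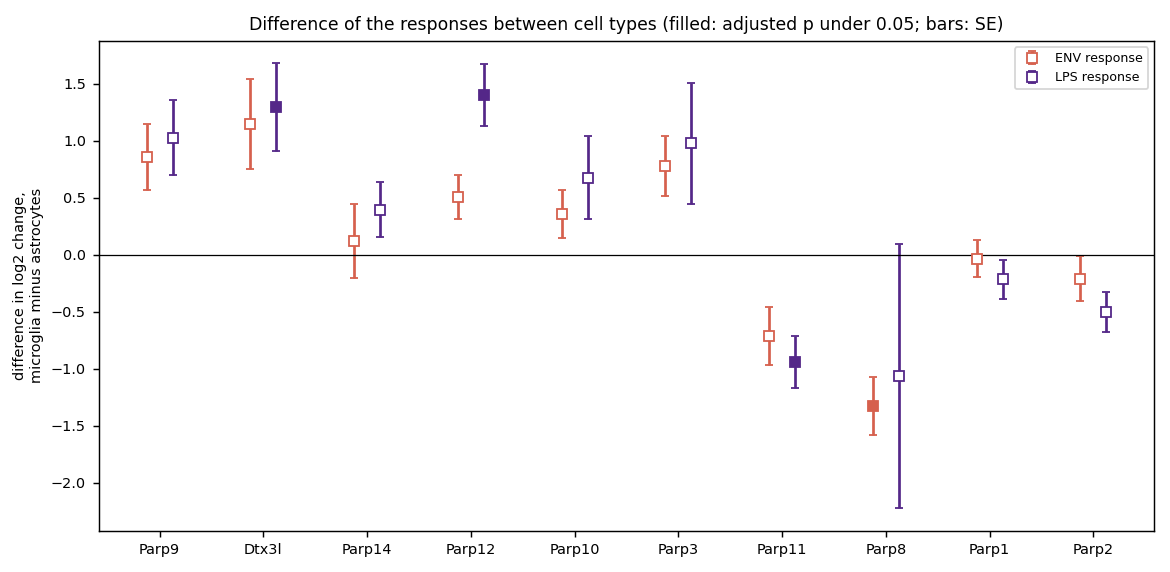
Microglial minus astrocyte log2 change of each member (y axis) under ENV and under LPS, with standard errors as bars; filled points passed an adjusted p of 0.05. Parp8 under ENV (-1.33) and Parp12, Dtx3l and Parp11 under LPS (1.40, 1.298 and -0.94) are filled.

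Without stimulus the members differed in which cell type held more of them. In both vehicles Parp1 was higher in microglia, at 302 to 348 CPM with buffer against 93.1 to 113 CPM in astrocytes, a log2 difference of 1.65 ± 0.11 (adjusted p = 7.11e-06 by edgeR). Parp3 was lower in microglia, at 8.83 to 11.2 CPM with buffer against 82.2 to 121 CPM in astrocytes (-3.33 ± 0.18, adjusted p = 2.43e-06), that is, 10.0-fold lower. Parp11 was lower in microglia, with log2 differences of -0.93 ± 0.22 with buffer (adjusted p = 0.00618) and -0.88 ± 0.18 with H2O (adjusted p = 0.00366). Parp14 was higher in microglia, by 0.47 ± 0.15 with buffer (adjusted p = 0.0237) and 1.297 ± 0.14 with H2O (adjusted p = 0.000177). Parp8 was lower in microglia in both vehicles, with log2 differences of -0.57 ± 0.18 with buffer (adjusted p = 0.0243) and -2.78 ± 0.61 with H2O (adjusted p = 0.0052). Its level in microglia was itself 4.76 to 7.15 CPM with buffer and 0.594 to 2.51 CPM with H2O. Summed oligodendrocyte-lineage markers in microglia were at 347 to 362 CPM with buffer and 20.7 to 210.5 CPM with H2O. Their part in the Parp8 differences was not tested. In all, 7 members differed with buffer (70.1% of all genes called), 3 higher (33.6%) and 4 lower (36.5%) in microglia. With H2O 6 differed (70.9%), 3 higher (33.2%) and 3 lower (37.7%), so the share of members was close to or below that of genes in general. Several of these calls rested on single libraries. With buffer the Dtx3l call (-0.77 ± 0.29, adjusted p = 0.0443) was lost without microglial replicate 1 or 2 or astrocyte replicate 2, 3 or 4, at adjusted p of 0.0526 to 0.104. The Parp2 call (0.43 ± 0.17, adjusted p = 0.0456) was lost without microglial replicate 3 or astrocyte replicate 1, 2 or 3, at adjusted p of 0.0836 to 0.134. The Parp14 call was lost without replicate 1 or 3 of either cell type (adjusted p of 0.0598 to 0.0758), and that of Parp8 without microglial replicate 1 or 2 (0.0808 and 0.0568). With H2O the Parp2 call (0.32 ± 0.12, adjusted p = 0.045) was lost without any 1 of the 7 libraries, at adjusted p of 0.0531 to 0.126. Parp9 was called lower in microglia with buffer without microglial replicate 3 (-0.74, adjusted p = 0.00666), and higher with H2O without astrocyte replicate 4 (0.36, adjusted p = 0.0381). Parp12 and Parp10 were not called in either vehicle, and Parp12 was at 60.6 to 66.2 CPM in microglia against 60.3 to 71.2 CPM in astrocytes with buffer. The gene tables of the cell types differ in how many genes they list (23139 in microglia, 20268 and 20056 in the ENV and LPS sets of astrocytes), and some genes stood far apart in level (Stat6 by 12.17 on the log2 scale with buffer). Whether the counting rules differed was not tested. The order of levels over the 8 groups was led by microglia with LPS for Parp9, Dtx3l, Parp14, Parp12 and Parp10, and by astrocytes with ENV for Parp3, Parp11 and Parp8. For Parp14 the means were 1623 ± 187 CPM in LPS microglia, 971 ± 169 CPM in ENV microglia, 644 ± 210 CPM in ENV astrocytes and 490 ± 97.4 CPM in LPS astrocytes (SD), all above the 4 vehicle groups at 119 to 300.1 CPM. For Parp9 the order was the same, at 431 ± 70.5, 292 ± 62.1, 220 ± 22.9 and 180 ± 56.0 CPM, with vehicles at 61.9 to 86.3 CPM. For both genes the libraries of ENV and LPS astrocytes overlapped, as did those of ENV microglia and ENV astrocytes. LPS microglia lay wholly above the next group for both. The order between sets also carries the difference between their vehicles.

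Among the other PARP family genes, Zc3hav1, the zinc-finger antiviral protein that binds viral RNA and lacks catalytic activity, rose in all 4 comparisons. Its log2 change was 1.72 with ENV and 2.03 with LPS in microglia, and 1.13 with ENV and 0.82 with LPS in astrocytes, and the LPS responses differed between cell types by 1.19 ± 0.19 (adjusted p = 0.00255 by edgeR). Parp4, which is found in vault particles, rose with ENV in astrocytes (0.90 ± 0.14, adjusted p = 0.00452) and was not analysed here in microglia. With LPS in microglia Tiparp, whose enzyme attaches single ADP-ribose units, rose by 0.68 ± 0.15 (adjusted p = 0.0206), and the tankyrase Tnks2 fell by 0.42 ± 0.11 (adjusted p = 0.0324). Parp6, Parp16 and the tankyrase Tnks were called in none of the 4. In counts, 1 of 6 tested members of this list was higher with ENV in microglia, a share of 16.7% beside 16.2% of all genes, and 2 of 6 were higher and 1 lower with LPS (16% and 13.8% of all genes). In astrocytes 2 of 7 were higher with ENV (9.52% of all genes) and 1 of 7 with LPS (2.64%).

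Of the other Deltex ligases, Dtx2 rose in microglia with ENV (1.88 ± 0.15, adjusted p = 0.000395 by edgeR) and with LPS (1.95 ± 0.14, adjusted p = 0.00105), and in astrocytes with ENV (0.45 ± 0.13, adjusted p = 0.0417). Dtx3 and Dtx4 were not called in any of the 4 comparisons, and Dtx1 was not called in the 3 it was tested in, LPS in microglia being left out by the filter on low counts. Of 12 tested genes that remove or read ADP-ribose, 2 were higher with ENV in microglia, a share of 16.7% beside 16.2% of all genes, and 1 was lower, where 14.7% of all genes were: the hydrolase Parg (0.39) and Gdap2 (0.55) rose and the hydrolase Macrod1 fell by 0.91. With LPS 0 of 12 were called in microglia, where 29.8% of all genes were, and 0 of 13 in astrocytes, where 5.34% were. In microglia the lowest adjusted p with LPS was that of the hydrolase Adprs (0.58 ± 0.19, adjusted p = 0.0598 by edgeR). In astrocytes with ENV 0 of 13 were higher and 1 was lower, where 9.52% and 8.35% of all genes were: Macrod2 fell by 1.03. Of 7 repair partners of Parp1 and Parp2, 2 were higher and 1 lower with ENV in microglia (16.2% and 14.7% of all genes). With LPS in microglia 2 were higher and 2 lower (16% and 13.8%). In astrocytes 1 was higher with ENV (9.52%) and 0 were called with LPS (5.34% in either direction). The DNA ligase Lig3 rose in microglia with ENV (0.56) and with LPS (0.81), and the remodeller Chd1l fell by 0.62 with ENV and by 1.44 with LPS. The polymerase Polb fell by 0.45 with LPS in microglia.

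Of the tested genes of the interferon route, 6 of 12 were called higher with ENV in microglia (16.2% of all genes) and 5 of 12 with LPS (16%). In astrocytes 7 of 11 were called higher with ENV (9.52% of all genes) and 4 of 10 with LPS (2.64%), with 0 called lower in each comparison. Irf7, an interferon-induced transcription factor, rose by 6.24 ± 0.70 with ENV and 5.94 ± 0.45 with LPS in microglia and by 4.58 ± 0.26 with ENV and 4.38 ± 0.42 with LPS in astrocytes. Stat2, which carries the type I interferon signal to the nucleus, averaged 359 ± 88.3 CPM with ENV and 95.5 ± 10.9 CPM with buffer in microglia (SD, n = 3 each), and rose by 1.95 ± 0.20. Irf9, the DNA-binding partner of Stat2, averaged 73.0 ± 21.3 CPM with ENV and 29.1 ± 9.71 CPM with buffer in microglia, and was below 1 CPM in all astrocyte groups. As for Stat6, whether the counting rules for Irf9 differed between the cell types' tables was not tested. The kinase Jak2 rose with ENV in astrocytes by 2.48 ± 0.40, and Irf1 by 1.88 ± 0.20. Ifnb1, which encodes interferon beta, had 2 counts over the ENV libraries and 0 over the buffer libraries of microglia, and 63 over the LPS and 0 over the H2O libraries. In astrocytes Ifnb1 had 5 counts with ENV and 0 with buffer, and 4 with LPS and 0 with H2O. It did not pass the filter on low counts in either cell type and was not tested.

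Genes whose 4 log2 changes lay closest to those of Parp9, Parp14 and Parp1 were found over 9418 genes by the root mean square difference on the log2 scale. For Parp9 these were Eif2ak2, Trim25, Ifi27, Aoah and Stat2, at 0.07 to 0.19. Eif2ak2, the kinase that senses double-stranded RNA, changed by 2.33 and 2.29 with ENV and LPS in microglia and by 1.502 and 1.28 in astrocytes, next to 2.28, 2.36, 1.41 and 1.31 for Parp9. For Parp14 they were Irgm, Mast4, Igtp, Bcl3 and Pstpip2, at 0.27 to 0.32. For Parp1 they were Dym, Crkl, Pskh1, Pdzd8 and Rabl6, at 0.02 to 0.04.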

How the data were processed

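Messenger RNA was captured from 28 libraries in 8 groups. Per gene symbol, the authors deposited raw counts, without normalisation. The submitters' processing notes name HISAT2, StringTie 1.3.3b and, as the build, mRatBN7.2. What each tool did, the annotation and the strand setting are not given in the labels. The 10 members and the gene lists were chosen with earlier results of these data known. The named genes were every member, every gene of the other PARP family list, Stat2, Irf7, Irf9 and Ifnb1, up to 3 called genes with the largest change per other list and comparison, and the 5 genes closest to Parp9, Parp14 and Parp1 among those averaging at least 10 CPM in a group. Stat6 was named after its values were seen. A gene that this rule names is not reported here.

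Each comparison was fitted on all genes of its groups with edgeR 4.0.16 (limma 3.58.1, R 4.3.3): TMM, filterByExpr, a robust quasi-likelihood F test, 2-sided, with Benjamini-Hochberg adjustment over all genes tested. Levels shown use TMM factors over all 28 libraries. Standard errors and 95% intervals come from the same fit. Genes were joined across cell types by symbol. The steps were tested on simulated counts with the same spread for every gene and with independent libraries, which the real libraries need not match. No 2 libraries of the same group agreed within sampling noise, and libraries of different groups were not compared in this way. In astrocytes, replicates 3 and 4 of the ENV set lay close to those of the LPS set in some values. Summed fibroblast and mural markers were at 4750 and 1228 CPM with buffer, against 4685 and 1266 CPM with H2O. Parp3 was at 169 and 126 CPM with ENV, against 174 and 130 CPM with LPS. In replicates 1 and 2 the marker sums were 3799 and 5859 CPM with buffer, against 1524 and 2860 CPM with H2O. Whether the sets share cultures is not given in the labels and was not tested. Same-numbered libraries deviated together from their group means (correlations of 0.26 to 0.64 over the 14 pairs), so the replicate number was used as a block in an alternative fit. The pairing was less clear for LPS in astrocytes, where the highest correlations with another number were 0.28 to 0.53. There LPS replicate 2 had 0.529 with its own number and 0.531 with another. The use of replicate numbers as pairs comes from the data, since the labels do not say what a number marks. Alternatives were RLE size factors, DESeq2 1.42.0, no filter on low counts, the block, a fit of all 4 groups of a cell type, subsets of replicates, and leaving out each library.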

Additional observations from a re-analysis of the deposited data

Results flagged for a closer look

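Parp8 differed between the cell types in its response to ENV, by -1.33 on the log2 scale (microglia minus astrocytes). Its change in microglia alone did not pass (-0.64, adjusted p = 0.0888 by edgeR). In those libraries oligodendrocyte-lineage markers were at 105 to 205 CPM with ENV against 347 to 362 CPM with buffer, and their part was not tested. With LPS, Parp12 differed by 1.40 and Dtx3l by 1.298, with larger changes in microglia, and Parp11 by -0.94, with a larger change in astrocytes. These 4 were picked out because the test of the difference itself passed an adjusted p of 0.05.

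In 2 groups of 4 astrocyte libraries 1 library lay far from the rest. Parp14 with LPS was highest in replicate 3, at 635 CPM, where the next library had 454 CPM. Parp10 with buffer was highest in replicate 4, at 46.9 CPM, where the next had 37.5 CPM. Such a gap was looked for in 40 groups of 4, and chance gives about 1 in 20.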

How the results depend on the processing

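Across 1450 alternative values of the 100 member results, 0 reversed a called direction, 64 lost a call and 35 gained one. Leaving out 1 library at a time, the members called numbered 6 to 6 (ENV, microglia), 5 to 6 (LPS, microglia), 7 to 7 (ENV, astrocytes) and 1 to 5 (LPS, astrocytes). They numbered 0 to 0 for ENV minus LPS in both cell types, 1 to 4 for each difference between cell types, 4 to 6 with buffer and 5 to 6 with H2O. With ENV in astrocytes, replicates 1 and 2 alone gave 4 members and replicates 3 and 4 alone gave 4, against 7 in all, where fewer samples entered. For the ENV difference between cell types DESeq2 gave 5 members and the replicate block 5, against 1, and for the LPS difference each gave 5, against 3. Beyond the calls named in the report, the block changed no other call of a member. Where DESeq2 and the main test differed, the cause was not tested.

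Counts over all genes, which set the background shares, moved more. With LPS in astrocytes 785 genes were called, against 2611 with the block, 2061 with DESeq2, 1736 in the fit of all 4 groups, 2970 with replicates 1 and 2 alone and 236 to 681 without single libraries. With ENV in astrocytes 2670 were called, against 4348 with the block, 372 and 950 with the pairs of replicates alone and 1487 to 2869 without single libraries. In microglia 3972 were called with ENV (2466 to 5282 without single libraries) and 3647 with LPS (1351 to 3986). For the differences between cell types the block gave 3314 against 1998 with ENV and 3029 against 1655 with LPS. For these DESeq2 gave 2867 with ENV and 2714 with LPS. Parp8 in LPS microglia, at 67 counts over 3 libraries, is the member whose depth limits it most.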
